A study of Mus musculus with 11 samples.

Results

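Interferon-response genes are the genes that a cell switches on after it has sensed an interferon. Of 39 such mouse genes listed by symbol, all 39 were found among the 29955 gene symbols of the files, and all 39 passed the minimum of a mean FPKM of 0.1 that 15369 genes passed. The list was made from known members of the response and not by a cut on their values here. It was nevertheless chosen with earlier results of these data known. FPKM is the number of fragments on a transcript, scaled to its exon length and to the depth of the sample. The genes were followed in im-scWAT cells, which are preadipocytes from the stromal vascular fraction of mouse inguinal subcutaneous fat that had been immortalized with a retrovirus expressing SV40 large T antigen, and that were differentiated into adipocytes. The study asked how the histone demethylase JMJD1A acts in beige adipocytes. It made RNA-seq libraries from 11 samples.

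All 11 samples share the large T antigen. In the 6 untransduced samples, differentiation was sampled at day 0, day 4 and day 8, with or without 0.5 μM rosiglitazone (ROS), a PPARγ ligand that turns the culture towards beige adipocytes. The samples of day 0, labelled plus and minus, were taken as a pair of preadipocyte samples, because the ROS treatment begins together with the induction of differentiation. Day 4 and day 8 have 1 sample with ROS and 1 without. The labels and the methods of the study describe the end of the ROS treatment differently. For im-scWAT cells the methods give ROS until day 8. They describe a change to medium without ROS shortly before the assay for primary cultures. The 5 transduced samples were all taken at day 8 with ROS. They carry a short hairpin RNA against endogenous Jmjd1a together with human JMJD1A from a retrovirus, as WT (2 samples, WT A and WT B) or, with 1 sample each, as S265A (alanine in place of a serine that is a phosphorylation site), S265D (aspartate in its place) or S265D-H1120Y (the same with a change that removes the demethylase activity). No transduced sample carried an empty vector or lacked the hairpin, so transduction, selection, knockdown and the human protein cannot be told apart. Kdm3a, the mouse gene of JMJD1A, had an FPKM of 13.0 to 28.5 in the transduced samples and of 21.1 in the untransduced sample of day 8 with ROS, so its row does not show the knockdown. Reads from the human cDNA were not separated from that row. The paper itself reports that the hairpin depleted endogenous JMJD1A, by immunoblot and qPCR.

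Interferons are secreted proteins that bind receptors on the cell surface and activate the kinases JAK1 and TYK2. Type I interferon signals through the complex ISGF3, of which STAT2 and IRF9 are subunits and which binds the interferon-stimulated response element (ISRE) in promoters. The gamma-activated site (GAS) is an element of genes that respond mainly to interferon gamma. Many of the induced genes encode antiviral effectors, sensors of viral nucleic acid, or parts of the machinery that presents antigens on MHC class I. Fibroblasts and adipocytes have these receptors, and several of these genes are expressed at a basal level without infection.

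The promoters are shown to let the reader see the elements that the members share. For each member, the window from 250 bases before the transcript start to 50 bases after it was read from NCBIM37, the assembly that UCSC calls mm9, with the strand taken from GENCODE. The ISRE core, which is GAAA and GAAA with any 2 bases between them, was searched on both strands, and 20 of the 39 windows (51.3%) held it, against 412 of 12905 windows of tested genes (3.19%). The GAS core TTCNNNGAA, which reads alike on both strands, was in 11 of the 39 (28.2%) and in 880 of the 12905 (6.82%). Of the members, 6 held both cores and 14 held neither. Matches of the same core may overlap, as in Isg15, and 10 members held 2 or more matches of the ISRE core. A match is a run of letters and not a measured binding site. The following stretches of 80 bases run 5′ to 3′ along the gene, with every match of the ISRE core in capitals, and are from 7 members that the results below turn on.
Isg15, chr4:155574949-155575028, minus strand: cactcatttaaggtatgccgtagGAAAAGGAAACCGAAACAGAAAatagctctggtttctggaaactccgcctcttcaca
Ifit1, chr19:34715259-34715338, plus strand: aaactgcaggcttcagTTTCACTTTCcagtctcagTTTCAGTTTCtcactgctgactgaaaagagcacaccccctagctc
Ifit3, chr19:34657862-34657941, plus strand: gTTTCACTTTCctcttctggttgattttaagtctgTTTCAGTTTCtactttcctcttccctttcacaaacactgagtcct
Oas2, chr5:121199889-121199968, minus strand: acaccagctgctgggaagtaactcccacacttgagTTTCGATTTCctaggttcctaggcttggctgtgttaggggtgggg
Rsad2, chr12:27141393-27141472, minus strand: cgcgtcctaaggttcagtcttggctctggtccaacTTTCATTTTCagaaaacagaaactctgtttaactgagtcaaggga
Gbp3, chr3:142222934-142223013, plus strand: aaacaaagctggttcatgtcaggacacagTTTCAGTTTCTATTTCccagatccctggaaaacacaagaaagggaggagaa
Zbp1, chr2:173044425-173044504, minus strand: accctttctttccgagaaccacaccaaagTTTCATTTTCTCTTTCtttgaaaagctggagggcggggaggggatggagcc

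**Figure D1:**
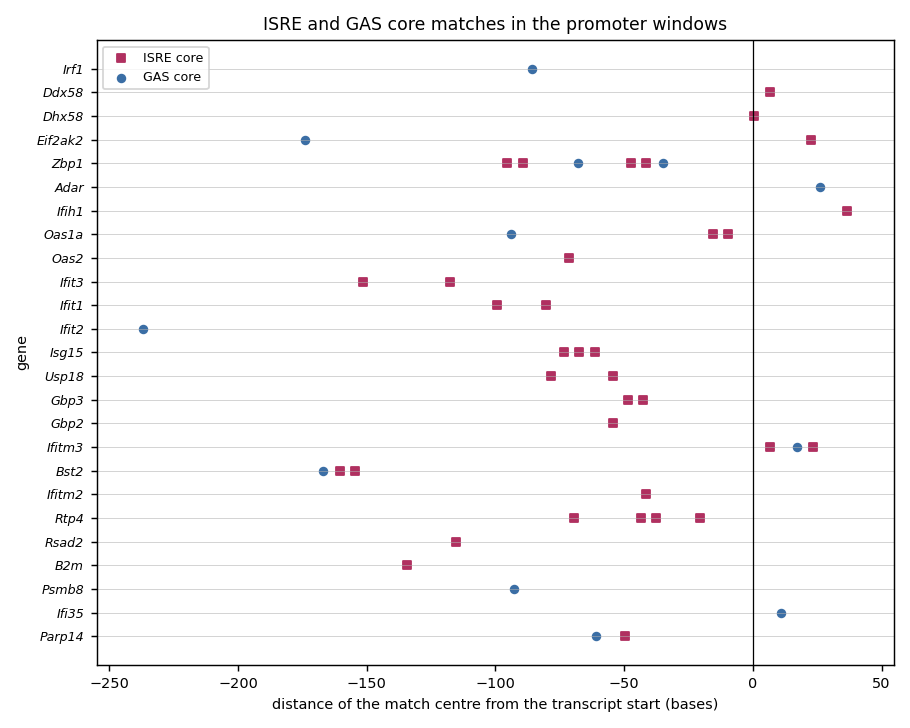
Distance of each match of the ISRE core (squares) and of the GAS core (circles) from the transcript start, in bases, for the 25 members with a match. In Isg15 the 3 overlapping ISRE matches lie between 78 and 57 bases before the start, and in Ddx58, Ifih1, Eif2ak2 and Ifitm3 the ISRE matches lie after it.

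Psmb9, the member with the largest difference between day 8 and day 0, held neither core in its window, which overlaps that of its neighbour Tap1 on the other strand. Several members lie next to close relatives: Ifit1, Ifit2 and Ifit3 on chromosome 19, the 4 OAS and OAS-like genes on chromosome 5, Ifitm1, Ifitm2 and Ifitm3 on chromosome 7, and Psmb8, Psmb9 and Tap1 in the MHC region of chromosome 17. How reads that match more than one of these copies were counted is not given in the sources used here, so the split between near copies is uncertain.

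The samples held 3.10 to 5.29 Gb of mapped bases, and the median number of bases mapped to a member went from 1584 for Ifitm1 to 10241303 for B2m. Ifitm1 was the member with the least data and had 345 mapped bases in its lowest sample. Adipocyte markers (Adipoq, Fabp4, Plin1 and 5 others) had a summed FPKM of 282 to 285 at day 0, of 36475 at day 8 with ROS and of 10286 at day 8 without ROS. Every sample after day 0 was above both samples of day 0 in this sum, which was 15796 to 29812 in the transduced samples. Fabp4, a fatty acid binding protein, made 74.2% to 90.2% of the sum in every sample. Among the 9 macrophage markers, Emr1 and Ptprc were at 0 in all samples and Itgam was at most 0.0115. The labels do not say that samples came from separate cultures, and p-values therefore measure the spread between these samples only. In bulk RNA, fewer cells with a transcript and less transcript per cell cannot be told apart.

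The interferon-response genes were higher in differentiated than in undifferentiated cells. In the 6 untransduced samples, 20 of the 39 members were called higher at day 4 than at day 0 and 0 lower, by limma at a Benjamini-Hochberg adjusted p under 0.05, while 24.9% of all genes tested were called higher and 22.2% lower. At day 8, 25 of the 39 were called higher and 0 lower, against 28.1% and 27.5% of all genes. The median log2 difference of the 39 was 1.28 at day 4 and 1.49 at day 8, and that of all genes tested was 0.03 and -0.02. Both samples of day 0 were below the other 4 untransduced samples in 29 of the 39 members and in 32.2% of all genes. With 1 sample for each combination of day and ROS, the spread came from the pair of day 0 and from the difference between the ROS effects of the 2 days, which gave 2 residual degrees of freedom. The number of calls rested on both samples of day 0. It fell on both days when either was left out, for the members and for all genes alike, with 1 sample remaining at day 0. The median of the members was then 1.05 to 1.15 at day 4 and 1.45 to 1.54 at day 8. With day 8 without ROS left out, an alternative chosen after seeing the data, 17 members were called higher at day 8 and the median fell from 1.49 to 0.92.

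**Figure D2:**
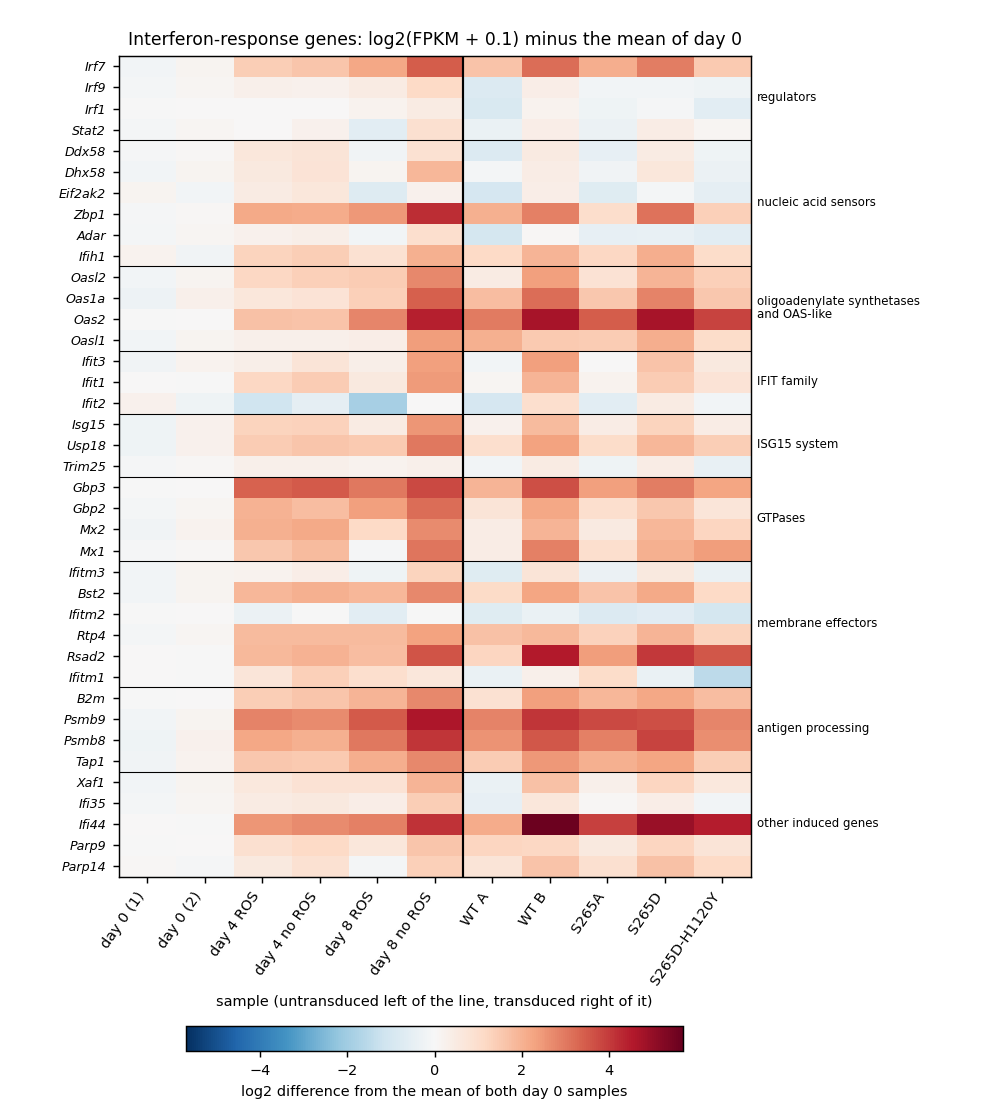
The 39 genes (rows, by role and by falling mean FPKM) in the 11 samples (columns). Color gives log2(FPKM + 0.1) minus the mean of both samples of day 0. The column of day 8 without ROS is the darkest red, and WT B and S265D are redder than the other transduced samples.

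Of the 9 role groups, the 4 antigen-processing genes had the largest median difference at day 8 (2.96), and all 4 were called higher on both days. Psmb9, an interferon-inducible catalytic subunit of the immunoproteasome at chromosome 17 from 34319044 to 34324275, had an FPKM of 5.98 and 7.68 at day 0, of 48.7 with ROS and 45.0 without at day 4, and of 77.7 with ROS and 168 without at day 8. Its log2 difference between day 8 and day 0 was 4.06 ± 0.33 (SE; limma, adjusted p = 0.0013). Psmb8, the second of these subunits, had 7.71 and 10.54 at day 0, 42.0 and 37.4 at day 4 with and without ROS, and 72.0 and 154 at day 8. The samples of day 0 stood apart from all later samples for both genes. Tap1, which moves peptides into the endoplasmic reticulum, went from 13.3 and 17.7 at day 0 to 64.4 with ROS and 102 without at day 8. B2m, the light chain of MHC class I and the most abundant member, had an FPKM of 757 and 773 at day 0 and of 2915 with ROS and 5130 without at day 8 (log2 difference 2.34 ± 0.19, limma adjusted p = 0.00134).

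Among the GTPases, Gbp3 and Gbp2, guanylate-binding proteins that act on intracellular pathogens, were called higher on both days, as was Mx2. Gbp3 had an FPKM of 14.2 and 14.6 at day 0, of 149 with ROS and 166 without at day 4, and of 115 with ROS and 196 without at day 8. For Gbp3 the whole difference was thus present at day 4 (log2 difference 3.44 ± 0.19 at day 4 and 3.37 ± 0.19 at day 8, limma adjusted p = 0.000668 and 0.000573). Gbp2 went from 16.7 and 19.9 at day 0 to 92.5 with ROS and 167 without at day 8. Mx2, whose row is annotated as noncoding, had 5.98 and 7.85 at day 0 and 15.1 with ROS and 44.6 without at day 8. Mx1, a GTPase that blocks influenza viruses, was not called, with 1.24 and 1.36 at day 0 and 1.26 with ROS but 11.7 without at day 8.

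The 4 regulators did not move alike. Irf7, the transcription factor that amplifies the interferon response, had an FPKM of 19.9 and 24.8 at day 0, of 59.2 with ROS and 66.0 without at day 4, and of 101 with ROS and 241 without at day 8. Its log2 difference at day 8 was 2.81 ± 0.30 (limma adjusted p = 0.00254). Irf9, the DNA-binding subunit of ISGF3, was called higher at day 8 but not at day 4 (log2 difference at day 8 0.80 ± 0.21, adjusted p = 0.0312) and went from 31.8 and 37.9 at day 0 to 48.7 with ROS and 75.4 without. Irf1 and Stat2 were not called at either day, with log2 differences of 0.34 and 0.14 at day 8. Irf1 kept to a range of 15.1 to 37.6 over the 11 samples and Stat2 to 15.8 to 45.0.

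Of the oligoadenylate synthetases, which make the messenger that activates RNase L, Oas2 was called higher at both days and Oas1a at day 8 alone. Oas2 had an FPKM of 1.36 and 1.39 at day 0, of 4.57 with ROS and 4.48 without at day 4, and of 10.1 with ROS and 31.9 without at day 8 (log2 difference from day 0 3.62 ± 0.41, limma adjusted p = 0.00287). Oas1a had 4.05 and 5.997 at day 0, 7.85 with ROS and 8.46 without at day 4, and 12.7 with ROS and 54.0 without at day 8. Oasl2, an OAS-like protein, was called on both days and went from 24.7 and 30.3 at day 0 to 74.8 with ROS and 186 without at day 8. Oasl1, the other OAS-like member, was not called and reached 17.4 only at day 8 without ROS, against 2.95 to 4.27 in the other untransduced samples.

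In the IFIT family, whose proteins bind foreign RNA and hold back its translation, Ifit1 was called higher on both days. Its FPKM was 25.8 and 24.2 at day 0, 56.5 with ROS and 67.8 without at day 4, and 37.3 with ROS and 133 without at day 8. Its adjusted p at day 8 was 0.029 in limma, and it lost the call in 4 of the 10 alternatives run, with the highest adjusted p of 0.109 and a log2 difference of 0.71 with day 8 without ROS left out. Ifit3 was called at day 8 only, with 37.2 and 49.6 at day 0 and with 54.4 with ROS and 217 without at day 8. Ifit2 was the member with the lowest difference of the 39 at day 8, at -0.93 ± 0.36 (adjusted p = 0.0867), with 11.1 and 7.71 at day 0 and 2.43 with ROS but 9.38 without at day 8.

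Isg15, a ubiquitin-like modifier, had an FPKM of 95.5 and 134 at day 0, of 273 with ROS and 284 without at day 4, and of 158 with ROS and 645 without at day 8. It was not called at day 8 in limma (log2 difference 1.49 ± 0.50, adjusted p = 0.0587), and a pseudocount of 1, median-ratio scaling or limma's trend option brought its adjusted p to 0.0405, 0.0382 and 0.0282. Usp18, the protease that removes ISG15 and damps interferon signaling, was called on both days and went from 22.96 and 32.4 at day 0 to 76.1 with ROS and 219 without at day 8. Trim25, a ubiquitin ligase of the RNA-sensing pathway, stayed between 27.3 and 50.9 over the 11 samples.

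Among the membrane-associated effectors, Bst2 (tetherin, which holds budding virus at the cell surface), Rtp4, Rsad2 (viperin) and Ifitm1 were called higher at both days, and Ifitm2 and Ifitm3 at neither. Bst2 had an FPKM of 108 and 134 at day 0 and of 452 with ROS and 808 without at day 8. Rsad2 had 2.41 and 2.38 at day 0, 8.99 with ROS and 9.77 without at day 4, and 8.22 with ROS and 29.7 without at day 8. Ifitm3, an inhibitor of viral entry with a high basal level, had 451 and 560.0 at day 0 and 424 with ROS but 1220 without at day 8. Rtp4 went from 24.4 and 29.3 to 94.97 with ROS and 131 without, and Ifitm1 was at 1.38 or less in every sample.

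Of the 6 nucleic acid sensors, Zbp1 and Ifih1 were called higher at both days and Ddx58, Dhx58, Eif2ak2 and Adar at neither. Zbp1, a sensor of Z-form nucleic acid, had an FPKM of 4.97 and 5.36 at day 0, of 23.3 with ROS and 22.7 without at day 4, and of 28.9 with ROS and 97.2 without at day 8 (log2 difference 3.34 ± 0.43, limma adjusted p = 0.00416). Ifih1 (MDA5), which binds long double-stranded RNA, went from 4.69 and 3.62 at day 0 to 7.67 with ROS and 17.3 without. Ddx58 (RIG-I) had 40.6 and 43.3 at day 0 and 36.9 with ROS but 75.7 without at day 8, while Eif2ak2 (PKR) ranged from 16.1 to 49.1 and Adar, an RNA-editing enzyme, from 13.9 to 54.1 over the 11 samples. Dhx58, a regulator of RIG-I and MDA5, had 19.9 and 24.7 at day 0 and 24.8 with ROS but 83.3 without at day 8. Among the other induced genes, Ifi44, Parp9, Xaf1 and Ifi35 were called higher at day 8 and Parp14 was not. Parp9 had 12.6 and 12.9 at day 0 and 19.8 with ROS and 38.1 without at day 8, and Ifi35 had 53.7 and 62.5 and then 75.98 and 156. Ifi44 rose from 2.64 and 2.57 at day 0 to 19.9 with ROS and 47.3 without (log2 difference 3.51 ± 0.28, limma adjusted p = 0.00125), and Xaf1 went from 39.6 and 47.9 to 76.6 with ROS and 169 without.

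The counts were close for members with and without an ISRE core. With it, 13 of 20 were called higher at day 8 with a median log2 difference of 1.77, and without it 12 of 19 were, with a median of 1.37.

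Between day 4 and day 8, averaged over ROS, limma called 0 of the 39 members, with 165 of 15369 genes called higher (1.07%) and 56 lower (0.364%). At an unadjusted p under 0.05, 11 members were higher and 1 lower (14.5% and 15.9% of all genes). The median difference of the members was 0.36, and it was -0.01 with day 8 without ROS left out. A pseudocount of 1 called 3 members higher and limma's trend option 4, where 787 and 804 of 15369 genes were called higher.

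The samples with and without ROS were alike in these genes at day 4 and apart at day 8. At day 4 the sample without ROS differed little from that with ROS, with 0 of the 39 members at least 2-fold higher (1.59% of all genes), 0 at least 2-fold lower (0.872%) and 29 higher by any amount (59.5% of all genes). At day 8, 26 of the 39 members were at least 2-fold higher without ROS, against 10.7% of all genes, 0 were at least 2-fold lower, against 2.77%, and 38 were higher by any amount, against 68.1%. The median log2 difference was 1.16 for the members and 0.20 for all genes at day 8, and 0.14 and 0.06 at day 4. Median-ratio scaling, which takes out most of the shift of all genes, left 19 members at least 2-fold higher at day 8. The exception was Ifitm1, at 1.03 with ROS and 0.814 without. The day 8 sample without ROS was the highest of the 6 untransduced samples in 34 of the 39 members (20.0% of all genes). It was the highest of all 11 samples in 28 members, which was not counted for all genes. The pair of day 0 gave 0 members 2-fold apart in either direction, against 0.468% and 1.05% of all genes. Their levels were not alike, however. The median log2 difference of the day 0 sample labelled minus over that labelled plus was 0.23 for the members and 0.01 for all genes. This shift of the members was larger than the 0.14 between the samples of day 4. Relative to the mean of day 0, the median of the members was 1.17 (log2) at day 4 with ROS, 1.36 at day 4 without, 0.81 at day 8 with ROS and 2.38 at day 8 without.

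**Figure D3:**
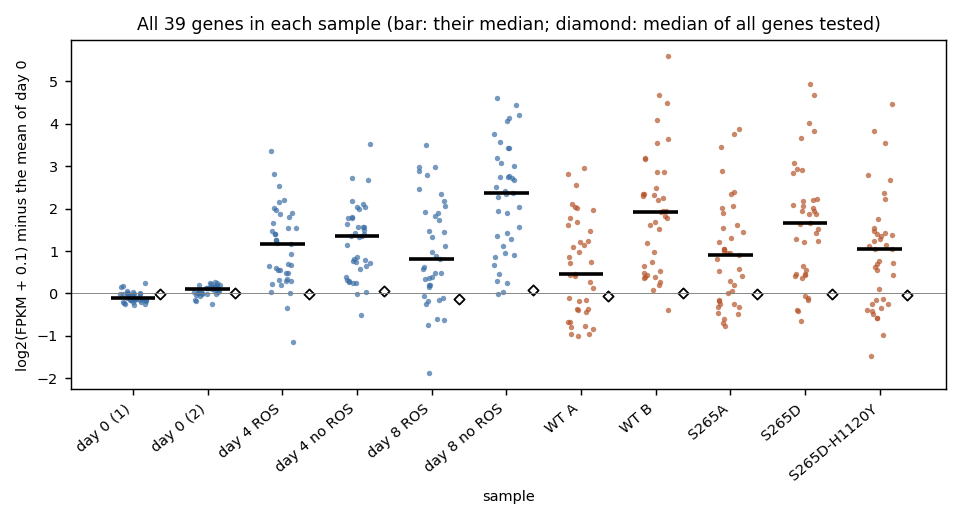
log2(FPKM + 0.1) minus the mean of day 0 for the 39 genes in each sample (points, untransduced in blue and transduced in orange), with their median (bar) and the median of the 15369 genes tested (diamond). The medians of all genes lie between -0.13 and 0.07 in every sample, while those of the members reach 2.38 at day 8 without ROS and 1.92 in WT B.

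The ratio at day 8 without ROS over with ROS was 9.29 for Mx1, 4.26 for Oas1a, 4.08 for Isg15 and Oasl1, 4.00 for Ifit3, 3.86 for Ifit2 and 3.62 for Rsad2. It was 2.38 for Irf7 and 1.76 for B2m. At day 4 the same ratio was 1.20 for Mx1, 1.08 for Oas1a, 1.04 for Isg15 and 0.99 for Oasl1. The ROS term of the limma fit, which averages days 4 and 8, called 0 of the 39 members and 0 of 15369 genes. At an unadjusted p under 0.05 it had 6 members lower with ROS and 0 higher, against 14.1% and 4.66% of all genes, with a median of -0.68 for the members and -0.13 for all genes, which were -0.55 and -0.01 under median-ratio scaling. Its largest values were -1.68 ± 0.68 for Mx1, -1.27 ± 0.36 for Ifit2 and -1.19 ± 0.42 for Ifit3. Without the day 8 sample lacking ROS, the median of the members was -0.14.

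The difference between the ROS effects at day 8 and day 4 was tested in a fit with an interaction term, chosen after seeing the data, which has 1 residual degree of freedom from the pair of day 0. It called 0 members and 0 of all genes by adjusted p. At an unadjusted p under 0.05, 17 of the 39 members had a lower ROS effect at day 8 and 1 (Ifitm1) a higher one, against 11.9% and 4.37% of all genes. The median of the members was -1.09 and that of all genes -0.13. The smallest adjusted p over all genes was 0.275, so the test found no gene at this number of samples.

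Of the 8 adipocyte markers, 6 were lower and 2 higher without ROS than with it at day 8. Fabp4 (31402 with ROS and 7631 without) and Cidec (2087 and 436) were lower by 2-fold or more, Adipoq, Plin1, Lpl and Cebpa by less, and Pparg (140 and 231) and Retn (238 and 278) were higher. Without Fabp4 their sum was 5073 with ROS and 2655 without. Preadipocyte or fibroblast markers, of which 6 of 6 were higher without ROS on both days, summed to 143 with ROS and 481 without at day 8. Their sum was 305 and 467 at day 4, and 741 and 757 in the samples of day 0. The summed macrophage markers were lower without ROS (3.39) than with it (5.12) at day 8, of which Cd68 made 2.45 and 4.30. Of the 9 macrophage markers, 2 were higher without ROS, both by at least 2-fold, and 2 were lower by less. The part of the adipocyte and preadipocyte markers in the result was not tested. The samples of day 8 had 5.08 Gb with ROS and 4.35 Gb without.

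**Figure D4:**
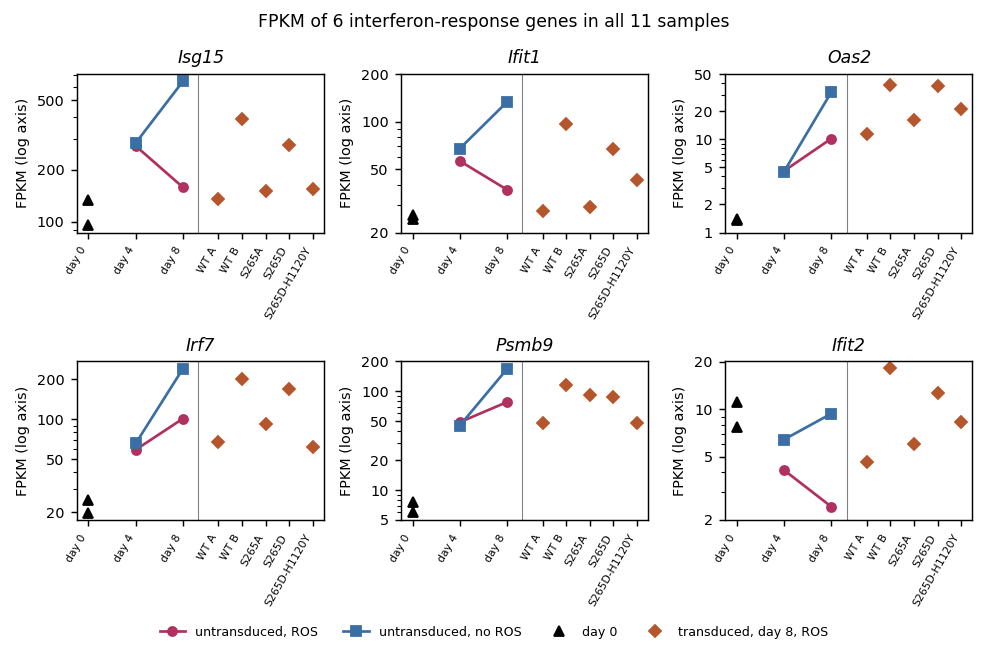
FPKM, on a log axis, of 6 members in the 11 samples, with day 0 as triangles, untransduced samples of days 4 and 8 as circles (ROS) and squares (no ROS) joined by lines, and the transduced samples of day 8 with ROS as diamonds. Isg15, Ifit1 and Ifit2 are higher at day 4 than at day 8 with ROS, and all 6 genes are higher in WT B than in WT A.

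No member was called between transduced and untransduced cells. Against the 1 untransduced sample of day 8 with ROS, limma called 0 of the 39 members and 0 of all genes in the 5 transduced samples. At an unadjusted p under 0.05, 3 members were higher and 0 lower, against 12.8% and 7.43% of all genes. The median log2 difference was 0.06 both for the members and for all genes tested. The untransduced sample lay within the range of the 5 transduced samples in 28 of the 39 members (46.8% of all genes), below all 5 in 8 (29.3%) and above all 5 in 3 (23.8%). The lone untransduced sample was assumed to vary like the transduced ones, which were pooled whatever their construct. Of the 8 adipocyte markers, 5 (Fabp4, Cidec, Adipoq, Cebpa and Pparg) were lower in all 5 transduced samples than in the untransduced sample, and Plin1, Lpl and Retn lay within their range. Of the 6 preadipocyte or fibroblast markers, 3 were higher in all 5, and the summed macrophage markers were higher in all 5 (6.40 to 22.99 against 5.12), with Emr1 and Ptprc at 0 in every sample. Their part in these values was not tested. The day 8 sample without ROS was above all 5 transduced samples in 29 of the 39 members, and 35.1% of all genes were.

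The 3 members at an unadjusted p under 0.05 were Parp14, Oasl1 and Ifit2. Ifit2 had an FPKM of 2.43 in the untransduced sample and of 4.67 in WT A, 18.1 in WT B, 6.004 in S265A, 12.7 in S265D and 8.37 in S265D-H1120Y, so all 5 were higher (mean 9.97 ± 5.49, SD, n = 5; log2 difference 1.82 ± 0.70, limma adjusted p = 0.22). Oasl1, 4.27 without transduction, was at 13.8, 9.53, 9.06, 14.2 and 6.93 in the same order. Parp14, a mono-ADP-ribosyltransferase, was at 5.42 and then at 9.88, 18.1, 11.04, 18.9 and 13.1. Mx1 had 1.26 without transduction and 1.78, 10.2, 2.63, 5.55 and 7.14 with it (log2 difference 1.78 ± 0.89, adjusted p = 0.317). In the other direction, Gbp2 had 92.5 in the untransduced sample and 84.1 or less in all 5, from 29.7 in S265D-H1120Y to 84.1 in WT B (log2 difference -1.12 ± 0.59, adjusted p = 0.335). With both untransduced samples of day 8 as the control group, the median of the members turned to -0.53, and that of all genes to -0.05.

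Most members were higher in WT B than in WT A. In WT B, 27 of the 39 members were at least 2-fold higher than in WT A (12.9% of all genes), 0 were 2-fold lower (8.2%) and 37 were higher by any amount (54.1%). The median log2 difference was 1.31 for the members and 0.07 for all genes. Both samples carry the same construct, so no test is possible, and the labels do not say whether they belong to the same experiment. Ifi44 had an FPKM of 11.5 in WT A and 130.4 in WT B, a ratio of 11.3. Rsad2 had 5.76 and 56.5 (9.82), Mx1 1.78 and 10.2 (5.73), Ifit3 38.8 and 220.0 (5.67) and Xaf1 33.5 and 140.4 (4.19). Isg15 had 136 and 390.1, Irf7 68.2 and 202, and B2m 1387 and 3819. Parp9 and Oasl1 were not higher in WT B, at 29.8 and 29.3 and at 13.8 and 9.53. The summed macrophage markers were 6.40 in WT A and 17.6 in WT B, of which Cd68 made 5.00 and 16.6, with 2 of the 9 markers at 0 everywhere and 3 past the minimum. Across the samples the macrophage sum was highest in S265D-H1120Y at 22.99 and was 3.39 at day 8 without ROS. Preadipocyte or fibroblast markers were higher in WT B in 6 of 6, with Pdgfra at 9.33 in WT A and 35.6 in WT B, Thy1 at 5.36 and 15.1, and a sum of 287 and 373. Of the 8 adipocyte markers, 3 were higher in WT B (Fabp4 and Lpl by 2-fold or more, and Pparg) and 5 lower, among them Adipoq (978 and 738), Plin1 (293 and 158) and Cebpa (150.0 and 83.3). The part of these markers in the difference between the WT samples was not tested.

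**Figure D5:**
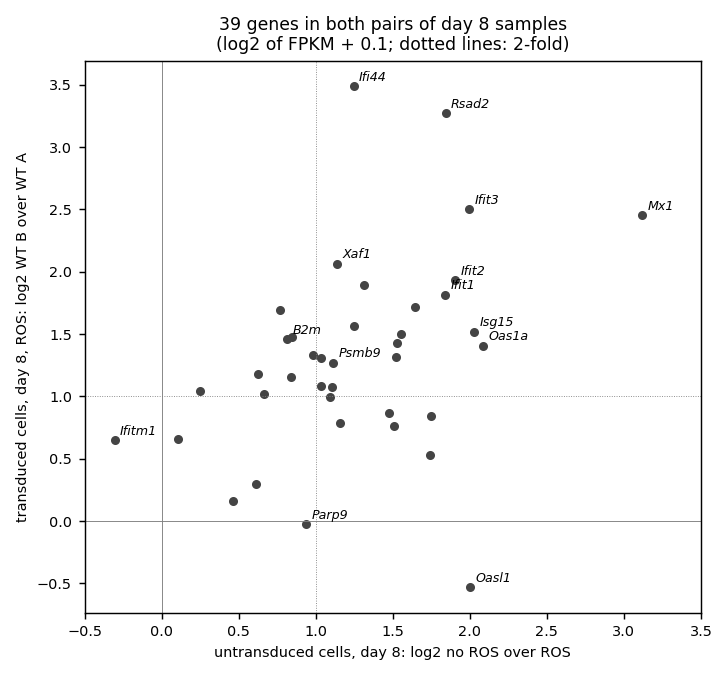
Each point is a member, with the log2 ratio (FPKM + 0.1) of day 8 without ROS over with ROS in untransduced cells on the horizontal axis and of WT B over WT A on the vertical axis. Most points lie to the upper right, with Oasl1 and Parp9 below 0 for WT B and Ifitm1 below 0 for the sample without ROS.

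These pairs share no sample. Across the 39 members, which are not independent replicates, the log2 ratios had a Pearson r of 0.377 and a Spearman rho of 0.435, and across all 15369 genes 0.252 and 0.25. The order of the members thus differed between the pairs. Ifi44, first by WT B over WT A, had 2.38 at day 8 without ROS over with ROS, and Oasl1 had 0.689 and 4.08.

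Among the constructs the members had the levels S265D and WT B above S265D-H1120Y, S265A and WT A. WT B and S265D were both above the other 3 transduced samples in 34 of the 39 members, against 16.5% of all genes, a grouping that was chosen after the values were seen. WT B was the highest of the 5 in 29 members and S265D in 9, whereas WT A was the lowest in 25 and S265D-H1120Y in 12. How often these samples were highest or lowest among all genes was not counted. In S265D, 11 members were at least 2-fold above S265A (4.24% of all genes) and 37 were higher by any amount (50.0%). Zbp1 had 10.4 in S265A and 44.6 in S265D, Rsad2 13.0 and 40.5, Ifit3 43.6 and 135, and Irf7 92.7 and 169. In S265D-H1120Y, 10 members were at 0.5 times S265D or lower (5.66% of all genes), and Mx1 was the exception in being higher (1 of 39, and 44.6% of all genes). Irf7 had 62.2, Oas1a 14.48 against 35.8, and Zbp1 13.3 in that sample. Preadipocyte or fibroblast markers summed to 280 in S265A, 267 in S265D and 301 in S265D-H1120Y. Of these 6 markers, 3 were higher and 3 lower in S265D than in S265A, as in S265D-H1120Y against S265D. Pdgfra among them was at 15 in S265A, 27.1 in S265D and 15.9 in S265D-H1120Y. Of the 8 adipocyte markers, 3 were higher and 5 lower in S265D than in S265A. In S265D-H1120Y all 8 were lower than in S265D, 2 of them by at least 2-fold, with sums of 15976.5 and 25626.3. The part of these markers in these values was not tested.

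The transduced values of the members described above by day follow in the order WT A, WT B, S265A, S265D and S265D-H1120Y. Psmb9 had an FPKM of 48.2, 116, 92.5, 86.6 and 47.7, and Psmb8 one of 53.4, 106, 67.3, 130.1 and 57.8. The order of S265A and S265D thus differed between these subunits. Isg15 was at 136, 390.1, 151, 277 and 154, Ifit1 at 27.3, 96.3, 28.8, 67.8 and 42.8, and Oas2 at 11.4, 37.8, 16.1, 37.6 and 20.9. In these 3 genes WT B and S265D were above the other samples. Gbp3 was at 56.3, 182, 73.1, 110.4 and 67.9, and B2m at 1387, 3819, 2830, 3511 and 2602.

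Against WT the direction depended on the WT sample used. In S265A, 4 members were at least 2-fold above WT A (7.96% of all genes) and 19 were at least 2-fold below WT B (4.81%). In S265D, 19 were at least 2-fold above WT A (9.99%) and 0 above WT B (3.01%). In S265D-H1120Y, 3 were at least 2-fold above WT A (10.5%) and 16 at least 2-fold below WT B (6.13%). The median log2 difference from WT B and from WT A was -0.997 and 0.334 for S265A, -0.267 and 0.971 for S265D, and -0.888 and 0.292 for S265D-H1120Y. The mean of the WT samples then served as control. Their spread gave the only residual degree of freedom (1), which limma moderates with the spread of all genes. In this fit limma called 0 of the 39 members and 0 of 15369 genes for each mutant against WT and for S265D-H1120Y against S265D. At an unadjusted p under 0.05 it had 0 members too. Of all genes, 0.345% were higher and 0.306% lower at that level in S265A than in WT, 0.39% and 0.0976% in S265D, 1.04% and 0.878% in S265D-H1120Y, and 0.455% and 0.677% in S265D-H1120Y against S265D. A difference between constructs as large as that between the WT samples could not be detected in this design.

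Other genes of the pathway were counted by list, and against day 0 their counts stand beside 28.1% of all genes called higher and 27.5% lower at day 8. Of 19 interferon genes, 12 were at 0 in all samples and 2 passed the minimum. Ifnb1, which encodes interferon beta, was at 0.11 and 0.14 at day 0, 0.18 at day 8 with ROS and 0.44 at day 8 without, and at 0.14 in WT A, 0.53 in WT B, 0.05 in S265A, 0.34 in S265D and 0.06 in S265D-H1120Y. These are low levels, and it was not called in any test. Ifnz was called lower at day 8 (limma, log2 difference -1.31) and was at 0.35 or less in every sample. Of the receptors, 6 of 6 passed the minimum. Ifngr1, the ligand-binding chain of the interferon gamma receptor, was called higher at day 8, from 28.6 and 29.0 at day 0 to 144 with ROS and 83.3 without (log2 difference 1.92 ± 0.25, limma adjusted p = 0.0043), and Ifngr2 and Il28ra lower. Il28ra was at 0.50 or less in every sample. Ifnar1 and Ifnar2, the receptor of type I interferon, ranged from 6.32 to 11.8 and from 9.40 to 15.5.

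Among 8 kinases and transcription factors, 2 were called higher at day 8 (Irf3 and Irf8) and 2 lower (Jak1 and Irf5). Irf8 was at a low level, with 0.51 or less in every sample. Among 14 sensors and adaptors that passed, 2 were called higher at day 8 and 5 lower, of which Tmem173 (STING) fell from 31.4 and 32.8 at day 0 to 3.80 with ROS and 11.3 without. Among 6 negative regulators, 1 was called higher and 2 lower. Of 62 further interferon-inducible genes that passed, 39 were called higher and 3 lower at day 8 (median 1.16), and 27 higher and 5 lower at day 4 (24.9% and 22.2% of all genes). Of these, 25 were at least 2-fold higher and 4 lower in WT B than in WT A (12.9% and 8.2% of all genes), and 35 higher and 0 lower at day 8 without ROS than with it (10.7% and 2.77%). H2-D1, an MHC class I heavy chain and the highest of them by mean FPKM, had 153 and 169 at day 0, 1169 with ROS and 1993 without at day 8, 532 in WT A and 1359 in WT B. H2-K1, another heavy chain, had 97.6 and 111 at day 0 and 976 with ROS and 1956 without at day 8. No gene of these lists was called between transduced and untransduced cells, in a limma test that called 0 of all genes.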

How the data were processed

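RNA-seq was measured in 11 samples of im-scWAT cells. The authors made TruSeq libraries, sequenced them on an Illumina instrument, aligned reads to UCSC transcripts and mm9 with Burrows-Wheeler aligner, realigned them locally and deposited strand-aware FPKM for each transcript. A further deposited column gives the coverage of each transcript as mapped bases, from which depth was taken (3.10 to 5.29 Gb). Tool versions are not given in the sources used here. No count model was applied to mapped bases.

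Sense rows marked as representative were kept, with 1 row per symbol. Of the 39 members, 20 have several sense rows, of which 1 was used. Genes with a mean FPKM of at least 0.1 were tested on log2(FPKM + 0.1), which understates changes of low genes, with limma 3.58.1 in R 4.3.3 and two-sided Benjamini-Hochberg adjustment at 0.05 over all 15369 genes. The script was tested on simulated data. Python 3.11.15 with pandas 2.3.3 and matplotlib 3.10.9 served for the rest. Members with no test were compared at 2-fold. The members named, by sample or by range, are the 2 highest of each role, the 5 with the largest difference in 4 comparisons, and those called, and others are given by range or count. The members, lists and comparisons were chosen with earlier results of these data known. Groups came from the labels of the samples. A gene of the pathway lists is not reported here.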

Additional observations from a re-analysis of the deposited data

Results flagged for a closer look

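Antisense rows lie outside the comparisons above, and a signal of at least 1 FPKM appeared in the antisense row of 7 of the 39 members in at least 1 sample. The highest was B2m with 11.1 in S265D-H1120Y, a sample whose sense row was at 2602. Xaf1 had up to 2.20, Ifitm3 1.49, Bst2 1.40, Tap1 1.31, Parp9 1.04 and Irf1 1.01, all at day 8 without ROS. The origin of these reads was not tested. Among the 5 transduced samples no named member had a sample far from the others by Dixon's criterion.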

How the results depend on the processing

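In the untransduced cells, the number of members called higher at day 4 went from 20 to 8 with no filter on low values and to between 7 and 10 when either sample of day 0 was left out. At day 8 it went from 25 to 15 with no filter and to between 15 and 18 without either sample of day 0. Without day 0 replicate 1 the median at day 4 was 1.05, and the lowest and highest of these medians were 1.05 and 1.15. With day 8 without ROS left out, the medians were 0.921 for day 8 against day 0, -0.0119 for day 8 against day 4 and -0.141 for ROS. Members called between day 4 and day 8 numbered 0, and 3 with a pseudocount of 1 and 4 with limma's trend option, while all genes called ranged from 0 to 804 higher and 0 to 698 lower. In the transduced cells, 0 members were called in any alternative, and the median was -0.532 with both untransduced samples of day 8 as the control and between -0.15 and 0.223 with a transduced sample left out. All genes called there were 0 higher and 0 lower as reported, but 525 and 175 without WT A, 0 and 1 without S265A, 167 and 149 with no filter, 10 and 2 with a pseudocount of 0.01, 0 and 1 with a pseudocount of 1, and 628 and 545 with both untransduced samples. No result changed direction under these alternatives while called. At least 2-fold higher without ROS at day 8 were 26 members, and 19 under median-ratio scaling. Fewer residual degrees of freedom remain when a sample is left out, and other causes were not tested. No paired analysis was possible because the groups compared share no replicate numbers in the labels. With the ROS label, which day 0 carries too, as a term at all 3 days (chosen after seeing the data), 17 members were called higher at day 4 and 21 at day 8, and Ifit1 lost its call at day 8. Depth was lowest for Ifitm1, whose values rest on the fewest mapped bases.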
